A study of Homo sapiens with 31 samples.

Results

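The retinoid genes described here are 9 protein-coding genes of vitamin A binding, metabolism and response: CRABP1, CRABP2, RBP4, RLBP1, ALDH1A1, ALDH1A3, DHRS9, CYP26B1 and RARB. They were taken by name from a count table of 17113 genes, and all 9 were found. The series mixed total RNA of 4 colorectal adenocarcinoma cell lines (LoVo, LS1034, HT-29 and HCT 116) with total RNA of CCD 841 CoN, a colon line labelled normal, to test how well the cancer share can be computed from a mixture. There were 3 libraries of unmixed RNA for each of the 5 lines, and 1 mixture per cancer line at 0.1, 1, 10 and 50% cancer RNA. All lines were untreated and grown in RPMI-1640 or DMEM with serum. Whether replicate libraries represent separate cultures is not given by the labels, so p-values measure only the spread between libraries, which may be technical.

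Cells take up vitamin A as retinol, oxidise it to retinaldehyde and then irreversibly to retinoic acid, which binds nuclear receptors and changes transcription. Small cytosolic proteins carry retinoids between enzymes and receptors, and CYP26 enzymes clear retinoic acid. In the intestine, retinoic acid is known for its part in epithelial differentiation and in shaping mucosal immunity.

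Library totals ran from 9688765 to 56741879 counts. Levels are given as CPM, a gene's count scaled to a common library total. The 12 fibroblast markers examined were all at 1 CPM or more in CCD 841 CoN, with summed levels of 26280 to 30770 CPM, against 3.43 to 158.7 CPM in the cancer libraries. The 12 epithelial markers summed to 239.6 to 315.8 CPM in CCD 841 CoN, with 4 of them at 0, against 3363 to 26270 CPM in the cancer lines. Smooth muscle markers (5 examined) summed to 1795 to 2120 CPM in CCD 841 CoN and to at most 121.7 CPM in the cancer lines. Of 4 immune markers in the table, HT-29, LoVo and LS1034 each had 1 at 1 CPM or more. The 4 summed to 1998 to 2729 CPM in HT-29 and to at most 5.91 CPM in the other lines. With 1 normal line, cancer status, cell type and line cannot be told apart in any comparison with CCD 841 CoN. In RNA from cultures, fewer cells of a type and less RNA per cell also cannot be told apart.

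Within the 9 genes, each cancer line carried its own set of binding proteins and enzymes. LoVo held CRABP1 at 21.5 ± 10.1 CPM (SD, n = 3), a gene with no count in HT-29 and HCT 116. LS1034 held RLBP1 at 27.5 ± 29.7 CPM (n = 3), a gene with no more than 1 count in any other unmixed library. HT-29 had the highest mean of CRABP2, RBP4, ALDH1A1 and DHRS9, and HCT 116 that of ALDH1A3. CCD 841 CoN had the highest mean only of CYP26B1, and its libraries overlapped those of HCT 116 there. A gene was called where edgeR's quasi-likelihood test gave a Benjamini-Hochberg adjusted p below 0.05 over all 14452 tested genes and the absolute log2 fold change was at least 1. In the unmixed libraries the filter on low counts kept 8 of the 9 genes, all but RARB, which is described there by its counts alone.

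**Figure D1:**
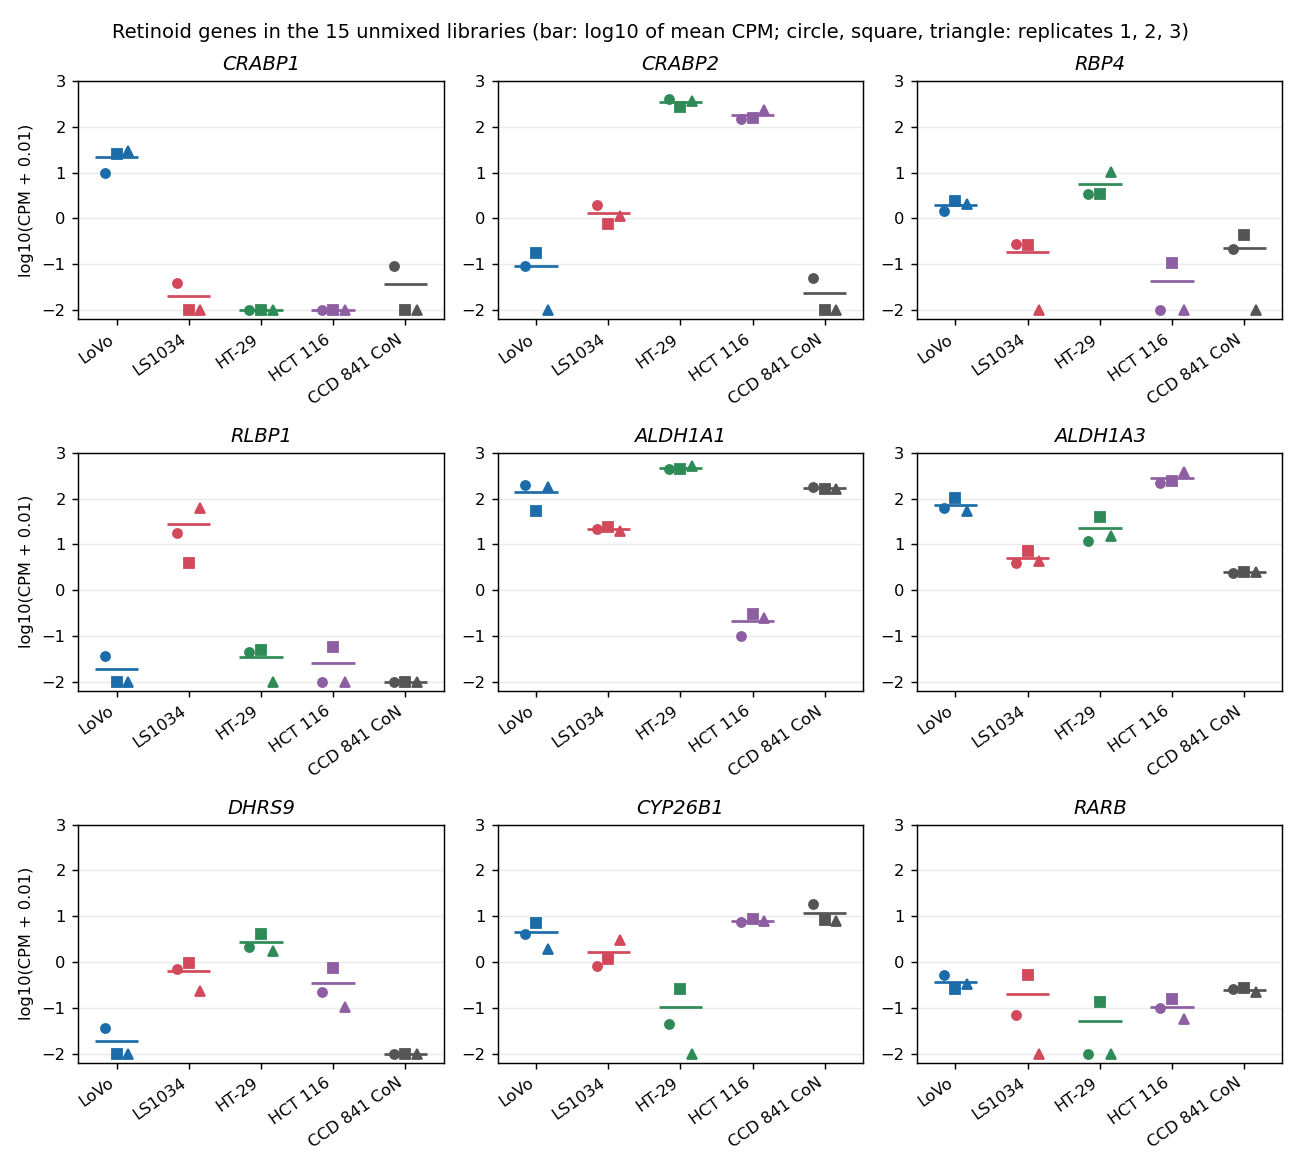
Level of each retinoid gene in the 15 unmixed libraries as log10(CPM + 0.01), with symbols for replicates 1, 2 and 3 and a bar at the mean of each line; a point at -2 has no count. CRABP1 stands at 21.5 CPM on average in LoVo and RLBP1 at 27.5 CPM in LS1034, while ALDH1A1 falls to 0.204 CPM in HCT 116.

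The cellular retinoic acid binding proteins differed in which lines held them. CRABP1, which binds retinoic acid in the cytosol, had 10.0, 25.5 and 28.9 CPM in the LoVo libraries. It had 1 count over the 3 LS1034 libraries, 2 counts over the CCD 841 CoN libraries (both in replicate 1) and 0 counts in HT-29 and HCT 116, which allows up to 0.0465 and 0.0399 CPM in those lines (3 counts over the group). The LoVo libraries stood apart from all others. Against CCD 841 CoN the ratio of counts was 421, with a 95% counting interval of 116 to 3480 (log2 fold change 8.53 ± 0.95 SE, adjusted p = 1.07e-05). LoVo was also at least 461-fold higher than HT-29 and at least 538-fold higher than HCT 116. Intervals and floors cover counting error only. Each SE was derived from the test, as the absolute log2 fold change over the square root of its F statistic. It is therefore approximate where a group has few counts. In GENCODE 29 a gene on the opposite strand shares 354 of the 772 exonic bases of CRABP1. The strand setting of the counting is not given in the sources used here, so reads of such a pair cannot be told apart if strand was not used.

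CRABP2, the paralog known to hand retinoic acid to its nuclear receptors, had the reverse distribution between LoVo and a pair of other lines. Its HT-29 libraries held 396, 274 and 365 CPM, and its HCT 116 libraries held 149, 152 and 236 CPM. In LS1034 it had 1.96, 0.750 and 1.12 CPM. The LoVo libraries gave 3, 4 and 0 counts, and CCD 841 CoN gave 1 count in 3 libraries. HT-29, HCT 116 and LS1034 did not overlap with each other or with the 2 lines below them, whereas LoVo and CCD 841 CoN overlapped. The log2 fold change over CCD 841 CoN was 13.44 ± 0.68 in HT-29 (adjusted p = 1.04e-09), 12.43 ± 0.68 in HCT 116 (2.06e-09) and 5.36 ± 0.82 in LS1034 (4.27e-05). These fits rest on the single CCD 841 CoN count, so the SE understates how uncertain they are. The HT-29 value ran from 13.09 to 15.93 over the alternative fits, and the counting interval of its ratio from 2835 to 624034. CRABP2 differed in all 6 pairs of cancer lines. The step from HT-29 to HCT 116 was the smallest (1.92-fold, log2 fold change 1.01 ± 0.34, adjusted p = 0.0312), and it fell under the fold threshold when library size alone was the scaling (0.94) or when any of 4 libraries was left out (0.86 to 0.94).

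The RefSeq window of 250 bases before to 50 after the CRABP2 start is shown because CRABP2 differed between every pair of cancer lines. Capitals mark CG dinucleotides, the sites of DNA methylation, of which the window has 20, against a median of 14 over 35116 windows of the same length. It lies at chr1:156705735-156706034 on the minus strand (GRCh38.p14).
CRABP2: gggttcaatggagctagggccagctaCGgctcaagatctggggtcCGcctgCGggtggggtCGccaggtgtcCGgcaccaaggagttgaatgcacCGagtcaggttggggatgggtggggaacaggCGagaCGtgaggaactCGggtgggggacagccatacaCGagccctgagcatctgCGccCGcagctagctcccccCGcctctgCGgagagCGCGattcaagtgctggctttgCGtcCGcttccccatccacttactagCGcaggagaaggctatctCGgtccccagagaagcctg

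The other carriers followed separate patterns. RBP4, the secreted retinol carrier of plasma, had 3.41, 3.41 and 10.4 CPM in HT-29 and 1.42, 2.33 and 2.07 CPM in LoVo. In LS1034 it had 0.263, 0.250 and 0 CPM, in HCT 116 2 counts in all, and in CCD 841 CoN 0.203, 0.429 and 0 CPM. HT-29 and LoVo lay above every library of the other 3 lines, which overlapped with each other. RBP4 was called higher than CCD 841 CoN in HT-29 (27.2-fold, log2 fold change 4.47 ± 1.05, adjusted p = 0.00203) and in LoVo (9.22-fold, 2.79 ± 1.01, 0.0283). The LoVo call was lost without LoVo replicate 2 (2.60), CCD 841 CoN replicate 1 (2.75) or CCD 841 CoN replicate 3 (2.31). HCT 116 was 8.18-fold lower by counts (95% interval 1.74 to 76.8) and not called (adjusted p = 0.0615). It was called with DESeq2 (-3.43) and without HCT 116 replicate 2 (-5.62) or CCD 841 CoN replicate 3 (-3.52). Between LoVo and LS1034 the RBP4 call was lost without LS1034 replicate 3 (2.83), and between LS1034 and HCT 116 a call was gained without HCT 116 replicate 2 (5.07).

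RLBP1, a retinaldehyde binding protein best known from the visual cycle of the retina, had 17.7, 3.87 and 60.8 CPM in LS1034. The other 12 unmixed libraries held 4 counts between them, none of them in CCD 841 CoN. The 3 LS1034 libraries spread over a wide range, yet all lay above every other library. LS1034 was at least 421-fold higher than CCD 841 CoN (adjusted p = 1.75e-05), and it was called higher than each of the other cancer lines. RLBP1, CRABP1 and ALDH1A3 all lie on chromosome 15, and their highest levels fell in 3 different lines.

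The enzymes that make retinoic acid split between the paralogs. ALDH1A1, a cytosolic retinaldehyde dehydrogenase widely used as a stem cell marker, had 451, 433 and 504 CPM in HT-29. In CCD 841 CoN it had 175, 163 and 165 CPM, in LoVo 195, 54.0 and 177 CPM, and in LS1034 21.9, 23.9 and 19.2 CPM. HCT 116 had 3, 6 and 5 counts, or 0.0908 to 0.291 CPM. The groups did not overlap, except that LoVo spanned the CCD 841 CoN range. HCT 116 was 822-fold lower than CCD 841 CoN (log2 fold change -10.04 ± 0.59, adjusted p = 3.53e-09). LS1034 was 7.76-fold lower (-3.24 ± 0.41, 5.68e-06) and HT-29 2.75-fold higher (1.22 ± 0.38, 0.0127), while LoVo was not called (-0.54 ± 0.37, 0.237). All 6 pairs of cancer lines differed, and the widest gap was 2264-fold, between HT-29 and HCT 116.

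ALDH1A3, the retinaldehyde dehydrogenase of several epithelia, ran the other way in HCT 116. Its HCT 116 libraries held 219, 238 and 381 CPM, and LoVo held 61.1, 104 and 54.8 CPM. Levels were 12.04, 39.7 and 15.3 CPM in HT-29, 3.88, 7.20 and 4.33 CPM in LS1034 and 2.35, 2.49 and 2.48 CPM in CCD 841 CoN. No neighbours in this order overlapped. Over CCD 841 CoN it was 114.5-fold higher in HCT 116 (log2 fold change 6.53 ± 0.49, adjusted p = 3.13e-08), 30.1-fold in LoVo (4.56 ± 0.45, 5.03e-07) and 9.16-fold in HT-29 (2.93 ± 0.43, 3.04e-05). LS1034 was 2.11-fold higher and not called (0.79 ± 0.42, 0.122), and with library size as the only scaling it was called at 1.08. All 6 pairs of cancer lines differed. An antisense gene shares 1585 of its 5426 exonic bases, with the same limit as for CRABP1.

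Levels of the 2 dehydrogenases were compared per kilobase of exon. Their sum was 223.7 ± 15.9 CPM per kilobase in HT-29 (SD, n = 3), 80.9 ± 31.6 in LoVo, 80.2 ± 3.05 in CCD 841 CoN, 51.6 ± 16.4 in HCT 116 and 11.2 ± 1.38 in LS1034. ALDH1A3 made up 99.7 to 99.9% of that sum in the HCT 116 libraries and 0.518 to 0.587% in CCD 841 CoN. Its share was 1.03 to 3.44% in HT-29, 6.44 to 10.5% in LS1034 and 10.8 to 42.8% in LoVo. LoVo replicate 2, which had the lowest ALDH1A1 and the highest ALDH1A3 of its line, set the upper end. HCT 116 thus nearly lacked ALDH1A1 transcripts. Its summed levels (40.4 to 70.4 CPM per kilobase) lay below every library of CCD 841 CoN (78.0 to 83.7) and HT-29, and above those of LS1034. They overlapped with the LoVo range (44.8 to 104) only through LoVo replicate 2. The sums were not tested.

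**Figure D2:**
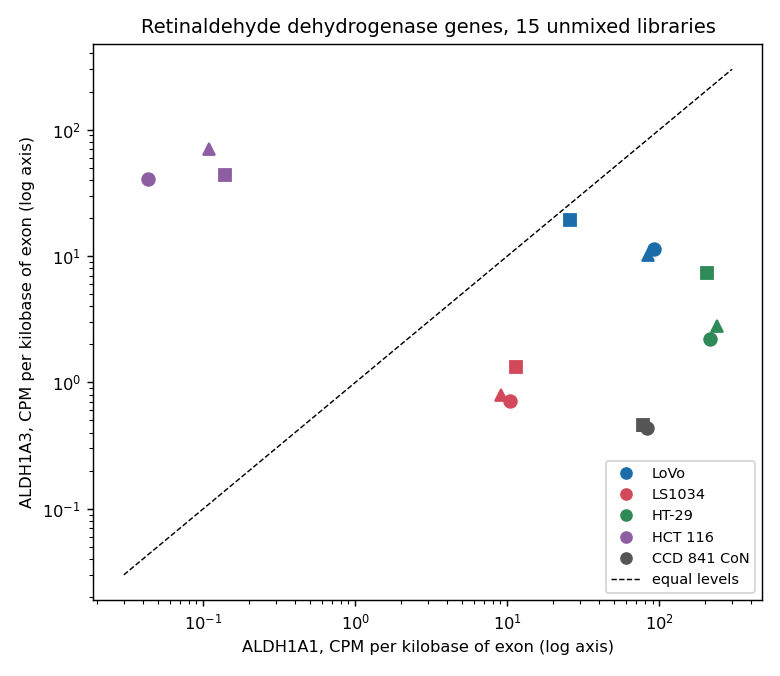
ALDH1A1 against ALDH1A3 in CPM per kilobase of exon, both axes logarithmic, 1 point per unmixed library (circle, square and triangle for replicates 1, 2 and 3). The 3 HCT 116 libraries lie above the dashed line of equal levels, with 99.7 to 99.9% of the sum from ALDH1A3, and the other 12 lie below it.

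The windows around the starts of these paralogs are shown because the 2 genes had opposite levels in HCT 116. In both, capitals mark CG dinucleotides. The ALDH1A3 window (chr15:100879581-100879880, plus strand, GRCh38.p14) has 46 of them and 81.7% G plus C. The ALDH1A1 window (chr9:72953004-72953303, minus strand) has 7 and 40.3%. Over all windows the quartiles were 4 and 28 CG dinucleotides, so ALDH1A3 lies above the upper one and ALDH1A1 between them. The series holds no methylation data.
ALDH1A3: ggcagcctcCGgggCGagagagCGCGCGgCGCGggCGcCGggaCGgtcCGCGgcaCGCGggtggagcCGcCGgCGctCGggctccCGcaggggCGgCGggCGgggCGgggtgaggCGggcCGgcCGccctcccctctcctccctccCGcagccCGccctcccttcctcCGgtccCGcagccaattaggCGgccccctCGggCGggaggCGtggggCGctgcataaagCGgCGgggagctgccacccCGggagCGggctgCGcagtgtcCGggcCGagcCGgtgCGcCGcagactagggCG
ALDH1A1: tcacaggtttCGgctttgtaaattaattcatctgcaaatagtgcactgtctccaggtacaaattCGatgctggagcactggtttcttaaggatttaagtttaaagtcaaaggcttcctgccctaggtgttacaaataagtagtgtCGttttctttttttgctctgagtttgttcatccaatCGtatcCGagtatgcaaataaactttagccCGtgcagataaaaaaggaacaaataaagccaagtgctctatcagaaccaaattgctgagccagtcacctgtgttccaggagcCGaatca

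DHRS9, a short-chain dehydrogenase that oxidises retinol among other substrates, was low throughout. HT-29 had 2.16, 4.05 and 1.76 CPM, LS1034 0.701, 0.916 and 0.224 CPM, and HCT 116 0.212, 0.728 and 0.0925 CPM. LoVo had 1 count in all and CCD 841 CoN none. HT-29 lay above every other library, and LS1034 and HCT 116 overlapped. DHRS9 was called higher than CCD 841 CoN in HT-29 (at least 40.7-fold, adjusted p = 0.000288), LS1034 (at least 9.41-fold, 0.00341) and HCT 116 (at least 5.28-fold, 0.0109). Over 3 libraries, those lines held 24 to 182 counts. Between cancer lines, 2 of its 4 calls were lost when 1 library was left out. DHRS9 in HCT 116 against LoVo lost its call without LoVo replicate 2 or 3 or HCT 116 replicate 2, and against HT-29 without HT-29 replicate 2 or HCT 116 replicate 1 or 3. LS1034 was 4.33-fold lower than HT-29 and not called (log2 fold change -2.12 ± 0.86, adjusted p = 0.0887). With the replicate number as a block it was called (-2.24, adjusted p = 0.0457), as it was with only these 2 lines in the fit (0.0393).

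CYP26B1, which degrades retinoic acid, was the 1 gene of the 9 with its highest mean in CCD 841 CoN. The CCD 841 CoN libraries held 18.3, 8.40 and 7.84 CPM, with replicate 1 well above the others. HCT 116 had 7.54, 8.54 and 7.68 CPM, LoVo 4.12, 7.20 and 1.91 CPM, and LS1034 0.817, 1.17 and 2.99 CPM. HT-29 had 1, 6 and 0 counts. HCT 116 overlapped with CCD 841 CoN, LoVo overlapped with LS1034, and HT-29 lay below all. Against CCD 841 CoN, HT-29 was 125-fold lower (log2 fold change -6.98 ± 0.89, adjusted p = 7.22e-06) and LS1034 6.95-fold lower (-3.09 ± 0.69, 0.00142). LoVo was 2.61-fold lower (-1.75 ± 0.65, 0.0323), a call lost without CCD 841 CoN replicate 1 (-1.22), without LoVo replicate 1 (-1.73) or 3 (-1.41) and with library size as the only scaling (-1.38). HCT 116 was not called (-0.86 ± 0.63, 0.265). Between LS1034 and HCT 116 the call was lost without LS1034 replicate 1 (-1.87) or 2 (-2.01), and between LoVo and LS1034 a call was gained without LS1034 replicate 3 (2.10).

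RARB, the retinoic acid receptor gene that is itself a well known target of retinoic acid, was near the detection limit in all 5 lines. It had 19, 6 and 4 counts in LoVo, 2, 12 and 0 in LS1034, 0, 3 and 0 in HT-29, 3, 3 and 1 in HCT 116, and 6, 3 and 2 in CCD 841 CoN. The highest library was LoVo replicate 1, at 0.508 CPM. Means ran from 0.0401 ± 0.0695 CPM in HT-29 to 0.356 ± 0.137 CPM in LoVo (n = 3), and neighbours in the order LoVo, CCD 841 CoN, LS1034, HCT 116, HT-29 all overlapped. Lines further apart did not all overlap, since LoVo and CCD 841 CoN each lay above HT-29 and HCT 116. By counts LoVo was 8.33-fold above HT-29 (95% interval 2.58 to 42.7). RARB was not tested in the unmixed lines, since it did not pass the filter there. TOP2B on the opposite strand shares 28 of its 3216 exonic bases, so if strand was not used some of these few counts could be reads of TOP2B.

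A direct repeat of retinoic acid receptor half-sites was searched on both strands of the 17 RefSeq promoter windows of the 9 genes. Each half-site could read AGGTCA, the usual form, or alternatively AGTTCA in its place, and the search also took GGGTCA as a variant form, with GGTTCA as the last of the allowed forms. A pair of half-sites had to lie in tandem with 5 bases between them. Of the 17 windows, 1 held a match, the third of 4 RARB windows (chr3:25428013-25428312, plus strand, GRCh38.p14), in which capitals mark it. The match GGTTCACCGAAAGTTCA begins 53 bases before the start. Over all 35116 windows 31 held such a repeat (0.0883%), while 38.6% held at least 1 half-site. The window is shown because RARB is the receptor gene among the 9.
RARB: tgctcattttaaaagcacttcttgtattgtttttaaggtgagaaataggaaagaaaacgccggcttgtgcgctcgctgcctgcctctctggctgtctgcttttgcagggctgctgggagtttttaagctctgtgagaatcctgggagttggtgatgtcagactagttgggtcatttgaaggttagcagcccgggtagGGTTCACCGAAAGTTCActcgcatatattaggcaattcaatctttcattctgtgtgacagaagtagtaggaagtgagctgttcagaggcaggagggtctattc

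The 4 cancer lines were then compared as a set with CCD 841 CoN, by the mean of their log2 fold changes. Of the 8 tested retinoid genes, 3 were higher (CRABP2, ALDH1A3 and DHRS9) and 2 lower (ALDH1A1 and CYP26B1), or 62.5%, where 47.1% of all tested genes were called (24.8% higher and 22.3% lower). ALDH1A3 was the 1 of these whose 12 cancer libraries (3.88 to 381 CPM) lay entirely above CCD 841 CoN (log2 fold change 3.70 ± 0.41, adjusted p = 8.57e-07). CRABP2 (8.20 ± 0.70, 4.02e-08) was 0 in 1 LoVo library and up to 396 CPM elsewhere. ALDH1A1 (-3.15 ± 0.27, 4.43e-08) was lower only as a mean of logs, since HT-29 was higher and the mean CPM differed by 1.07-fold. CYP26B1 (-3.17 ± 0.46, 1.75e-05) ranged from 0 to 8.54 CPM in the cancer lines. DHRS9 (5.79 ± 1.73, 0.0104) lost its call without LoVo replicate 1 (5.33, adjusted p = 0.99995).

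Line by line, LoVo had 3 higher and 1 lower of 8, where 48% of all genes were called (26.5% higher and 21.6% lower), and HCT 116 had 3 higher and 1 lower, where 46.7% were (25.4% and 21.2%). LS1034 had 3 higher and 2 lower (background 47.1%, with 25.7% higher and 21.4% lower), and HT-29 had 5 higher and 1 lower (background 45.7%, with 24.7% and 20.9%). In LoVo, LS1034 and HCT 116 these shares of 8 genes lie near the background and are no result about the list. HT-29 had more calls than the background share, and the genes were chosen with earlier results known, so its count is a description. These 4 comparisons share the CCD 841 CoN libraries. The median log2 fold change of the tested retinoid genes was 1.66 in LoVo, 0.15 in LS1034, 2.80 in HT-29 and 0.43 in HCT 116, against 0.21 to 0.24 over all tested genes. With genes absent from CCD 841 CoN set at their bound, and genes at or under 3 counts in both groups left out, the medians were 2.18, 0.79, 3.70 and 0.77.

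**Figure D3:**
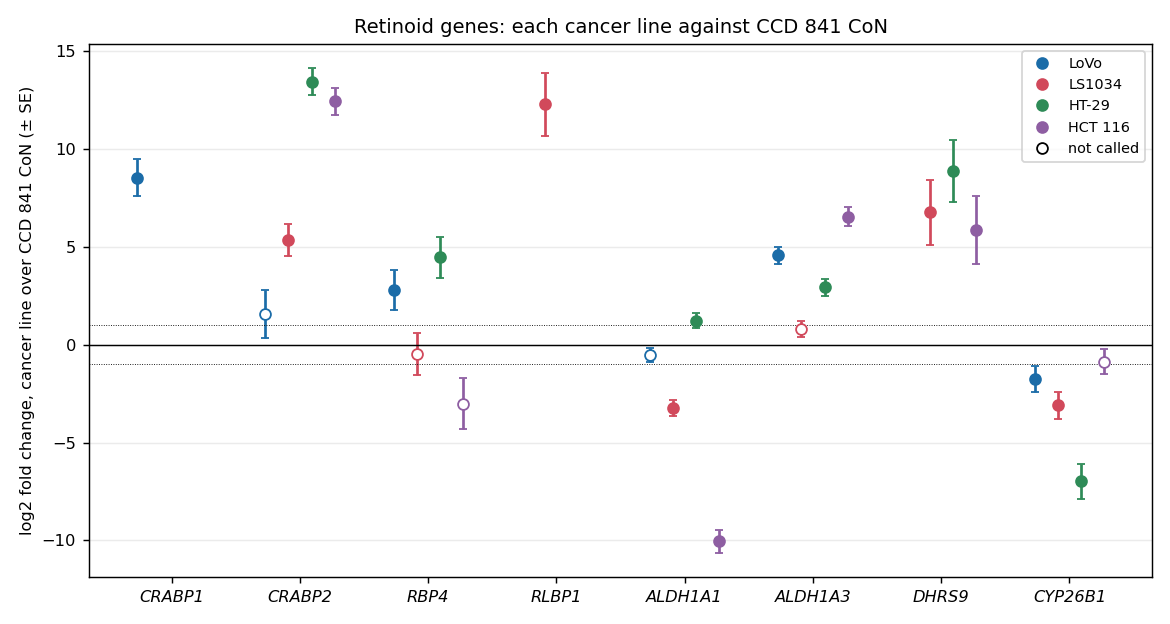
Log2 fold change of 8 retinoid genes in each cancer line over CCD 841 CoN, with bars for the SE derived from the F statistic. Dotted lines mark a log2 fold change of 1 and -1. Filled points were called, and pairs with at most 3 counts in both groups are left out. ALDH1A1 spans from -10.04 in HCT 116 to 1.22 in HT-29. Where CCD 841 CoN had no count (RLBP1 and DHRS9), the height depends on the prior count of the fit.

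The cancer lines were also compared with each other in 6 pairs. LoVo and LS1034 differed in 7 of 8 tested genes, 4 higher and 3 lower in LoVo, where 26% of all genes were called (13.2% higher and 12.8% lower). LoVo had 3 higher and 3 lower than HT-29 (background 27.2%, with 13.7% and 13.4%). It also had 3 higher and 3 lower than HCT 116 (22.1%, with 11.9% and 10.2%). LS1034 had 2 higher and 4 lower than HT-29 (22.6%, with 11.4% and 11.2%) and 2 higher and 3 lower than HCT 116 (32.9%, with 16.6% and 16.3%). HT-29 had 4 higher and 2 lower than HCT 116 (30.6%, with 15.2% and 15.4%). In these comparisons 62.5 to 87.5% of the tested retinoid genes were called, and 50 to 75% in the comparisons of single lines with CCD 841 CoN. The 6 comparisons share libraries, and the genes were chosen with earlier results of these data known, so the counts are a description. By gene, CRABP2, ALDH1A1 and ALDH1A3 differed in 6 of 6 pairs, RBP4, DHRS9 and CYP26B1 in 4, and CRABP1 and RLBP1 in 3, which are the 3 pairs that hold LoVo and LS1034, respectively.

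The rest of the pathway was followed in 5 lists. Of 16 genes of retinoid uptake, transport and storage, 15 were tested, and the number called higher than CCD 841 CoN was 6 in LoVo, 6 in LS1034, 8 in HT-29 and 7 in HCT 116, with 1, 1, 0 and 1 lower. Of all tested genes, 45.7 to 48% were called in these 4 comparisons (24.7 to 26.5% higher and 20.9 to 21.6% lower). The total of 7 or 8 calls of 15 lies near that share. By direction, the 6 to 8 higher are a larger share than that of all genes, and the 0 or 1 lower a smaller one. The lists were chosen with earlier results known, so this is a description. Median log2 fold changes were 3.91, 2.74, 2.34 and 3.27, or 1.65, 2.25, 1.85 and 1.72 with bounds. HCT 116, the line with the highest ALDH1A3, carried RBP7 (43.9 CPM), a cellular retinol binding protein, and LRAT (15.9 CPM), which esterifies retinol for storage. Both were at or below 0.0286 CPM in CCD 841 CoN (1 count each, adjusted p = 1.35e-05 and 0.000243). The 95% counting interval of the ratio began at 359-fold for RBP7 and 142-fold for LRAT. LoVo had RBP7 at 6.16 CPM. ISX, an intestinal regulator of vitamin A uptake, stood at 14.97 CPM in LS1034 and at 0 in CCD 841 CoN, and STRA6, the retinol receptor, at 5.87 against 0.165 CPM in HT-29. PNPLA4, a retinyl ester hydrolase, was higher in all 4 lines (15.5 to 35.3 against 6.05 CPM).

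Of 19 retinol and retinal oxidoreductases, 13 were tested, with 4, 5, 7 and 3 higher and 2, 1, 1 and 2 lower in LoVo, LS1034, HT-29 and HCT 116. These 6, 6, 8 and 5 calls of 13 compare with 45.7 to 48% of all genes, and all but that of HT-29 lie near it. The medians were 0.05, 0.61, 2.02 and -0.17 (0.05, 0.23, 2.02 and -0.27 with bounds). SDR16C5, a retinol dehydrogenase, was higher in all 4 lines (4.51 CPM in HCT 116 and 8.87 to 17.3 CPM in the others), with no count in CCD 841 CoN. AKR1B10, a retinaldehyde reductase, was 65.5-fold higher in HT-29 (381 against 5.82 CPM) but 77.7-fold lower in LS1034 and 9.99-fold lower in HCT 116. AKR1C3 was higher in LoVo, LS1034 and HT-29 (36.6, 100.0 and 167 against 1.18 CPM), and its reads may be shared with near-identical AKR1C genes. DHRS3, which reduces retinaldehyde back to retinol, was called higher in LoVo, HT-29 and HCT 116 (24.7, 72.8 and 59.9 against 9.25 CPM). RDH10, the retinol dehydrogenase of embryonic retinoic acid synthesis, was called lower in LoVo, HT-29 and HCT 116 (81.4, 70.0 and 55.2 against 138 CPM).

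Of 6 other genes of retinoic acid synthesis and clearance, 5 were tested, with 1, 1, 1 and 2 higher and 1, 2, 1 and 2 lower in the same order of lines. With 5 genes, the 2 to 4 calls are too few to read against the 45.7 to 48% of all genes called. Medians were -0.04, 0.13, 0.19 and 0.29 (-0.04, -2.39, 0.02 and 0.29 with bounds), so the LS1034 median changed sign with 1 gene left out. AOX1, an oxidase that can turn retinaldehyde into retinoic acid, was lower in all 4 lines (0.0668 to 0.722 against 18.7 CPM). CYP26A1, the paralog of CYP26B1, stood at 6.17 CPM in LoVo with no count in CCD 841 CoN (at least 94.6-fold, adjusted p = 7.88e-05). CYP1B1, a cytochrome P450 with some retinol oxidising activity, was 852-fold lower in LS1034 and 15.7-fold lower in HCT 116.

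Of 13 receptors and cofactors, 12 were tested, with 1, 1, 4 and 1 higher and 3, 2, 0 and 1 lower, and medians of 0.33, -0.11, 0.62 and -0.19. The 2 to 4 calls of 12 in a line are a smaller share than the 45.7 to 48% of all genes. FABP5, which carries retinoic acid to PPARD, was higher in all 4 lines (34.8 to 192 CPM against 3 counts in CCD 841 CoN), although FABP5 has processed copies that can share its reads. RARG, the receptor of epidermis, was 4.96-fold lower in LoVo (8.13 against 40.3 CPM). In LoVo RARA was 1.64-fold lower by mean CPM, and it was called on the scaled fit's log2 fold change of -1.05. RXRA, the shared partner receptor, was 2.78-fold higher in HT-29 (77.5 against 27.9 CPM).

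Of 15 symbols listed for retinoid response genes, 12 were tested, with 4, 2, 3 and 1 higher and 6, 7, 4 and 5 lower, and medians of -0.35, -3.76, 0.94 and -0.96 (-0.98 in HCT 116 with bounds). The list held PLAAT4 also under its older symbol RARRES3. The total of 6 to 10 calls of 12 compares with 45.7 to 48% of all genes, and the 4 to 7 lower with 20.9 to 21.6%. RARRES2, which encodes the chemokine-like protein chemerin, was lower in all 4 lines (0.107 to 8.94 against 158 CPM), as was MEIS1, a homeobox gene (0.0485 to 2.98 against 37.5 CPM). TGM2, tissue transglutaminase, was lower in all 4 lines, from 2.95-fold in HT-29 to 411-fold in LoVo. CDX1, an intestinal homeobox gene that is also among the epithelial markers, stood at 325 CPM in LS1034 and at 0 in CCD 841 CoN. RARRES1 was 32.4-fold higher in LoVo and PLAAT4 13.9-fold higher in HT-29. The fibroblast and epithelial marker sums given above differ between the same groups, and their part in these list counts was not tested.

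**Figure D4:**
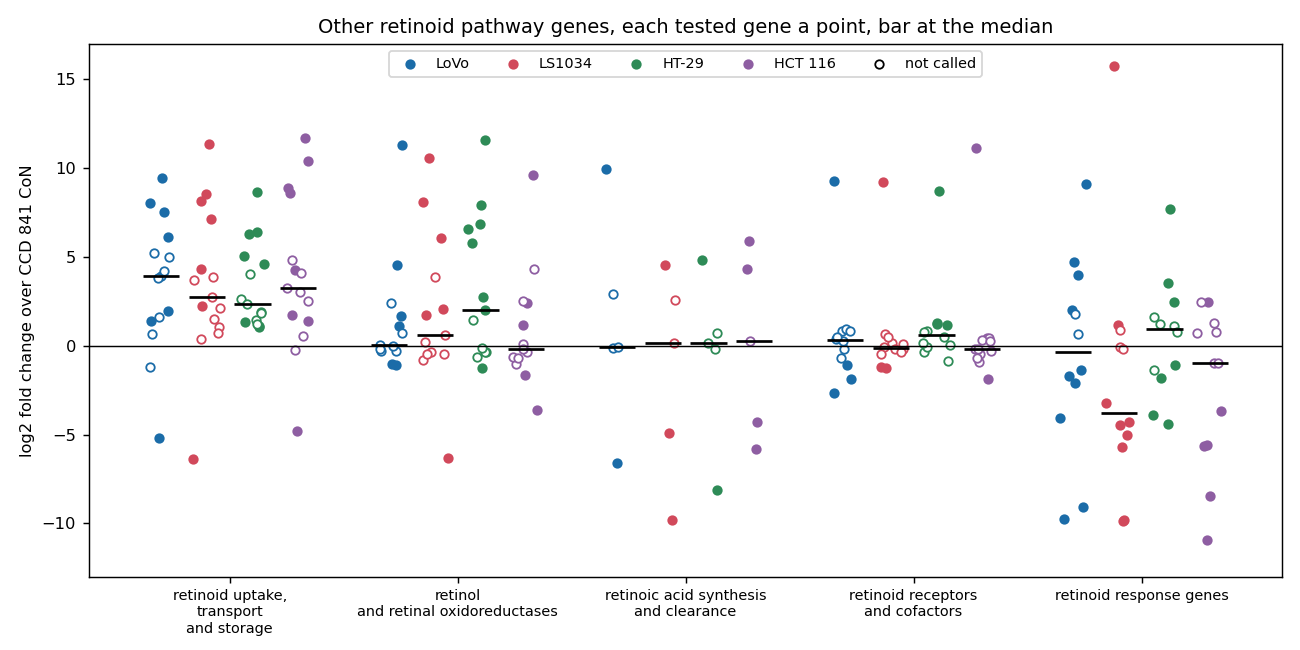
Log2 fold change over CCD 841 CoN of each tested gene of the 5 pathway lists, by cancer line; filled points were called and black bars mark the median of the list in that line. Genes without counts in CCD 841 CoN are drawn at the fitted value, which depends on the prior count. The response gene list has its lowest median in LS1034 (-3.76).

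The genes most alike in pattern were found by Pearson's r of log2 CPM over the 15 unmixed libraries, among genes with a mean of at least 5 CPM in 1 line. The libraries fall into 5 groups of 3 that share a line, so r mostly reflects the line means and is a description. For CRABP1 they were CAMKV, MT1M and SPINK6 (r = 0.99 for each), which had 8.03, 29.6 and 60.7 CPM in LoVo and at most 0.0541 CPM elsewhere. RLBP1 was followed by PRSS33, CST7 and APOA2 (0.98 each), at 11.5 to 24.5 CPM in LS1034. For CRABP2 the genes were COL9A3, SYNE4 and SEMA3E (0.95 to 0.97), and for ALDH1A3 they were RAP2B, TNFRSF18 and CFD (0.97 to 0.99). ALDH1A1 was closest to HSD17B2, SCCPDH and CBR1 (0.95 to 0.96), all 3 at or below 0.202 CPM in HCT 116. RBP4 was closest to UGT1A1, AGR3 and PDZK1IP1 (0.91 to 0.92), and among the genes most like DHRS9 were BCAS1 and TMPRSS13 (0.95 each). Among those most like CYP26B1 were FBXL2 (0.98) and CYRIA (0.96).

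In the dilution series each level was set beside the level predicted from the unmixed means, weighted by the labelled percentages. CRABP2 was nearly absent from CCD 841 CoN and reached its highest level in HT-29. It had 1.10, 11.8, 59.2 and 227 CPM in the HT-29 mixtures at 0.1, 1, 10 and 50%, against predictions of 0.358, 3.46, 34.5 and 172. The 24 counts at 0.1% compare with 1 count in the 3 CCD 841 CoN libraries. Observed levels were 3.07, 3.41, 1.72 and 1.32 times the prediction, and the 95% counting intervals of all 4 ratios lay above 1 (1.97 to 4.57 at 0.1%). Beside this, genes at 5 CPM or more in HT-29 and at least 32-fold above CCD 841 CoN were summed. Their sum in the mixtures was 0.662, 2.25, 15.7 and 57.2% of that in unmixed HT-29. What CCD 841 CoN itself adds to this sum was not taken off, so the values are not shares of cancer RNA. The median ratio of these genes to the prediction was 0.427, 1.25, 1.30 and 0.971. In HCT 116 mixtures CRABP2 had 0.153, 2.89, 24.7 and 106 CPM (predicted 0.193, 1.81, 17.9 and 89.6), and LoVo mixtures held no CRABP2 count at any percentage. In the LS1034 mixture at 1%, 7 CRABP2 counts were 13.8 times the prediction (5.53 to 28.3), and the 16 counts at 50% were 1.54 times it (0.881 to 2.50).

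CRABP1 and RLBP1 were each followed in the mixtures of the line that held them. CRABP1 had 0, 28, 167 and 292 counts in the LoVo mixtures, or 0, 0.578, 2.94 and 14.1 CPM (predicted 0.0485, 0.241, 2.17 and 10.7), and no count in any of the other 12 mixtures. RLBP1 had 0, 6, 288 and 442 counts in the LS1034 mixtures, or 0, 0.308, 5.39 and 27.4 CPM. At 10 and 50% these RLBP1 levels were 1.96 and 1.996 times the prediction, while the unmixed LS1034 libraries themselves ranged from 3.87 to 60.8 CPM. Without LS1034 replicate 3 the ratio at 50% was 5.08, and without replicate 2 it was 1.40.

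The 2 dehydrogenases had opposite orders of levels in HCT 116 mixtures, with 1 library per point and no test within a series. ALDH1A1 had 178, 161, 153 and 85.7 CPM from 0.1 to 50% HCT 116 RNA (predicted 168, 166, 151 and 84.2), and ALDH1A3 had 3.67, 7.82, 46.4 and 200 CPM (predicted 2.72, 5.21, 30.1 and 140.9). ALDH1A1 stayed within 0.967 to 1.06 times its prediction, and ALDH1A3 was at 1.35 to 1.54 times. In HT-29 mixtures ALDH1A1 went from 168 to 189, 233 and 377 CPM, and in LS1034 mixtures it went from 190 to 198, 168 and 95.1 CPM. LoVo mixtures held 178 to 188 CPM at all 4 percentages, which lies within the range of the unmixed LoVo and above that of CCD 841 CoN.

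CYP26B1 had 12.5 to 19.5 CPM in the 0.1% mixtures, which are almost wholly CCD 841 CoN RNA, and the unmixed CCD 841 CoN libraries held 7.84 to 18.3 CPM. At 50% it had 10.7 CPM with LoVo, 7.57 with LS1034, 9.72 with HT-29 and 16.8 with HCT 116. These were 1.15 to 1.73 times the prediction, and 1.55 to 2.37 times without CCD 841 CoN replicate 1. RBP4 in the HT-29 mixtures stood at 1.67 CPM at 10% and 9.65 CPM at 50%, the second 3.25 times its prediction. This ratio was 5.33 without HT-29 replicate 3 and 2.72 without replicate 1 or 2. The unmixed HT-29 libraries themselves ranged from 3.41 to 10.4 CPM of RBP4. Low counts were erratic. RARB had 22 counts in the LoVo 0.1% mixture and none at 1%, where 11.5 were predicted, and DHRS9 had 9 counts in the LoVo 50% mixture although LoVo itself held 1 count in 3 libraries. At 50%, 14 of the 19 pairs of gene and line with a prediction of at least 1 CPM lay within 1.5-fold of it, over a range of 0.495 (DHRS9 in HT-29) to 3.25.

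**Figure D5:**
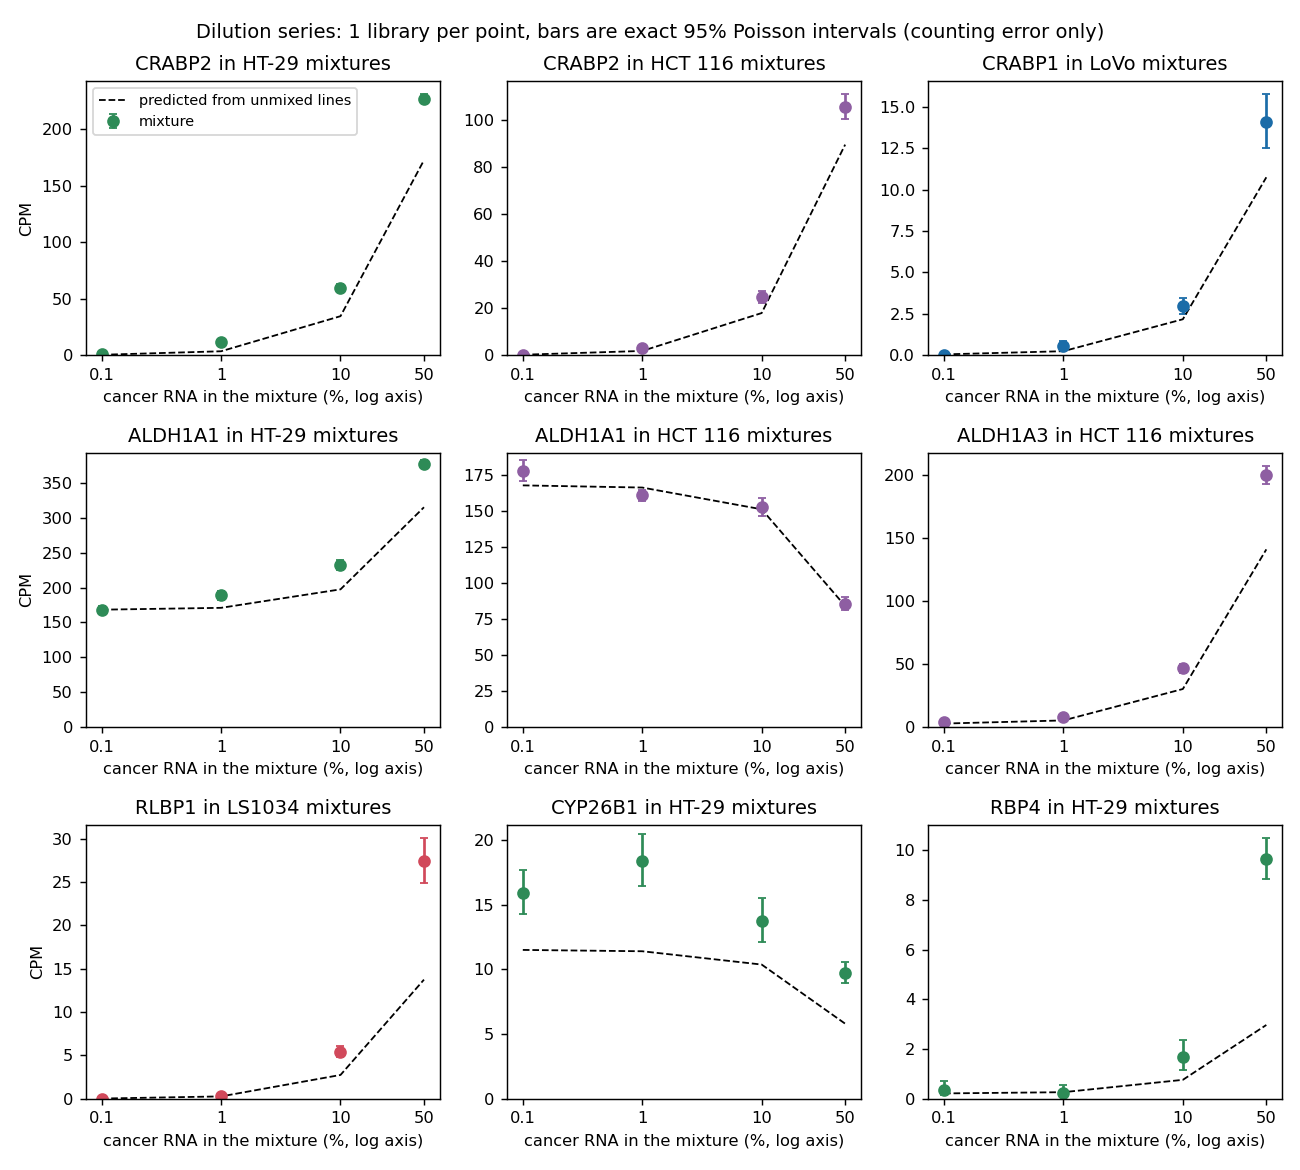
CPM of retinoid genes in the mixtures, for 9 pairs of gene and cancer line, against the percentage of cancer RNA (log axis). Each point is 1 library with its exact 95% Poisson interval, and dashed lines give the level predicted from the unmixed lines. CRABP2 reaches 227 CPM at 50% HT-29 RNA (predicted 172), and ALDH1A1 stands at 85.7 CPM at 50% HCT 116 RNA (predicted 84.2).

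Across the 4 series, with the cancer line as a block, the mixtures at 1, 10 and 50% were each tested against those at 0.1% by adjusted p alone, since dilution shrinks every difference. The filter kept 7 of the 9 genes, all but RLBP1 and DHRS9. At 1%, CRABP2 was the 1 gene called (log2 fold change 3.48 ± 0.59, adjusted p = 0.0184), where 0.918% of 13508 genes were called, all of them higher (0% lower). The higher share of calls was 60.7% with DESeq2 and 89.3% with only the compared percentages fitted. At 10%, CRABP2 was again the 1 gene called (5.86 ± 0.57, 6.95e-05), where 7% of genes were called (6.16% higher and 0.837% lower, or 88.0% of calls higher, against 66.4% with DESeq2 and 65.4% with only the compared percentages fitted). At 50%, CRABP1 (10.01 ± 2.08, 0.0136), CRABP2 (7.78 ± 0.59, 1.08e-06), RBP4 (3.60 ± 1.17, 0.0185) and ALDH1A3 (3.04 ± 0.64, 0.00125) were higher and CYP26B1 (-0.60 ± 0.20, 0.0200) was lower, where 53.8% of all genes were called (30.4% higher and 23.5% lower). ALDH1A1, higher at 50% than at 0.1% with HT-29 and lower with HCT 116 and LS1034, was not called (-0.27 ± 0.28, 0.435), and without the HT-29 mixtures it was called at -0.82. The CYP26B1 call was lost without the LoVo, LS1034 or HT-29 mixtures (-0.46, -0.54 and -0.55) and with library size as the only scaling (-0.48). RBP4 lost its call without the LoVo or HCT 116 mixtures (2.82 and 3.38), and CRABP2 at 1% without the HT-29 or HCT 116 mixtures (4.14 and 3.61). CRABP1 had counts in the LoVo series alone, so its value rests on 1 line. With DESeq2 it was not called (1.16, adjusted p = 0.871). RARB was not called at 1, 10 or 50% (-4.74 ± 1.93, -3.12 ± 1.83 and -1.24 ± 1.57, adjusted p = 0.799, 0.414 and 0.530).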

How the data were processed

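Per the labels and the submitters' processing notes, total RNA was sequenced after ribosomal RNA removal (stranded KAPA kit), and the authors deposited raw counts per gene from featureCounts, after STAR alignment to hg19. Versions, annotation and strand setting are not given in the sources used here.

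The deposited counts of 15 unmixed libraries in 5 groups of 3 were fitted together in R 4.3.3 by the quasi-likelihood test of edgeR 4.0.16 after filterByExpr and TMM scaling, and the 16 mixtures with line as a block. CPM used the total of each library (9688765 to 56741879 counts), and tables and figures used Python 3.11.15. Mean CPM gave the folds. A group without counts was set at 3 counts in all to give a lower bound, and a group of 1 to 3 counts was compared by summed counts with an exact 95% interval. The scripts were tested on simulated counts. No 2 replicates agreed within sampling noise (chi-square per gene of at least 5.13 in 15 pairs).

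Alternatives were DESeq2 1.42.0, other scalings, no filter, fewer groups in the fit, a replicate block, and each library left out. Replicate numbers paired the cancer lines (residual correlation 0.175 to 0.544 in 18 pairs) but not CCD 841 CoN (-0.0408 to 0.0217 in 12). Exon lengths and overlaps came from GENCODE 29 and promoter windows from RefSeq (GRCh38.p14), not hg19. All 9 genes are described. From each pathway list at most 4 genes per comparison were eligible for naming, namely called genes with the largest absolute log2 fold change, at 5 CPM or more and without overlap. The 3 genes most alike in pattern to each tested gene of the 9 were eligible too. Some eligible genes are not reported here. The genes, lists and rules were chosen with earlier results of these data known.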

Additional observations from a re-analysis of the deposited data

Results flagged for a closer look

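For each of the 8 tested retinoid genes the 4 cancer lines differed from each other in their difference from CCD 841 CoN. The contrast between 2 cancer lines is also the test of that difference, and the most significant pair is given for each gene. CRABP1 was higher in LoVo than in HCT 116 (log2 fold change 11.81, against a line with no count, so the size depends on the prior count), and CRABP2 lower in LoVo than in HT-29 (-11.87). RBP4 was higher in HT-29 than in HCT 116 (7.50), and RLBP1 higher in LS1034 than in HCT 116 (10.55). ALDH1A1 was higher in HT-29 than in HCT 116 (11.26), and ALDH1A3 lower in LS1034 than in HCT 116 (-5.74). DHRS9 was lower in LoVo than in HT-29 (-7.23), and CYP26B1 lower in HT-29 than in HCT 116 (-6.12). With 3 libraries a line, none was examined for outlying libraries.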

How the results depend on the processing

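Of 60 calls of retinoid genes in the unmixed lines, 52 held under every alternative in which the gene was tested. The other 8 were lost under 1 or more (among them RBP4 and CYP26B1 in LoVo and CRABP2 between HT-29 and HCT 116). With only the compared groups fitted, DHRS9 had no test in LS1034 or HCT 116 against CCD 841 CoN, so those calls were not made there. The same was true of DHRS9 in LoVo against LS1034. Without CCD 841 CoN replicate 1, LoVo against CCD 841 CoN kept 2 of 4 calls (2 to 4 over the libraries left out). At 1%, DESeq2, the compared percentages alone, and the series without HT-29 or HCT 116 gave 0 calls, with 3, 1, 3 and 4 genes at an unadjusted p below 0.05. At 10% the count was 2 in place of 1 with no filter, with DESeq2, with the compared percentages alone, and without the HT-29 or HCT 116 mixtures. At 50% it was 2 with the compared percentages alone and 3 without the LoVo mixtures, in place of 5. Over all genes, 124 calls at 1% became 440 with DESeq2 and 28 with the compared percentages alone, and 59 to 74 without 1 of 3 series. The 945 at 10% became 1608 and 1509, and 564 (99.1% higher) and 551 without the LS1034 or HT-29 mixtures.

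The replicate block changed 1 call: DHRS9 in LS1034 against HT-29 went from -2.12 to -2.24 and was called. Reversed directions were all in uncalled genes. CRABP1 over the 4 lines ranged from -0.33 to 3.39 over the libraries left out (-0.33, -0.31 and -0.25 without LS1034 replicate 1 and CCD 841 CoN replicates 2 and 3), and RBP4 in LS1034 from -0.98 to 0.24. In the mixtures CRABP1 at 1% turned to -0.24 with DESeq2. ALDH1A1 at 1% was -0.0084 without LS1034 and -0.029 without HT-29, and without HCT 116 it was 0.0028 at 10% and 0.00094 at 50%. CYP26B1 at 1% was -0.024 without HT-29 and -0.075 without HCT 116. The cause of these changes was not tested. With library size as the only scaling, the median of all genes over CCD 841 CoN moved from 0.21 to 0.24 up to 0.45 to 0.56, and the share of calls that were higher from 55.1 to 65.2% in LoVo and from 54.5 to 64.9% in HCT 116. Fitting the compared groups alone was not run for the 4 lines together, since it is the same fit. Depth limits RARB, DHRS9 and RBP4, whose levels rest on few counts.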
